A study of Mus musculus with 27 samples.

Results

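Transcripts of the choroid plexus, the pituitary and the blood were followed animal by animal in RNA of the whole mouse brain, through 29 marker genes listed by name (12 of choroid plexus, 8 of pituitary, 7 of red cells and 2 of neutrophils). All probe sets whose annotated symbol or synonym is 1 of these genes were taken from a table of 12488 probe sets. That gave 28 probe sets for 23 of the 29 genes, while the annotation of the whole table names 8949 genes. Clic6, Enpp2, Otx2, Sostdc1 and Prlr of the choroid plexus list and Pou1f1 of the pituitary list matched no probe set. The animals were 4 untreated DBA/2J mice, of unstated sex, and 5 untreated male mice of a strain the labels write as C57BL/2 (DBA and C57 below). All were 10 weeks old, and each animal had 1 of the arrays used here. Every description, DBA included, gives the sample the further name C57 1, so strains were taken from the titles.

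A choroid plexus hangs in each ventricle of the brain, where its epithelium secretes cerebrospinal fluid and makes large amounts of transthyretin. The pituitary gland lies below the brain on a stalk and makes peptide hormones in specialised cells. Both can come away with a brain or stay behind, and the blood left in its vessels brings the RNA of immature red cells and of white cells. In RNA of a whole organ, fewer cells of a type and less RNA per cell cannot be told apart.

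The arrays measure intensity, the brightness of a probe set on a linear scale, and a level was compared only with the level of the same probe set on other arrays. Strains were compared on the 9316 probe sets left after the dimmest 25% by geometric mean over the 9 arrays, which put the brightness limit at an intensity of 35.4. Of the 28 marker probe sets 15 lay above that limit and 13 below it, and 17 of the 23 measured genes had a probe set above it. Array medians ran from 168.5 to 188.85 in DBA and from 160.5 to 198.4 in C57, and an array's mean correlation with those of its strain from 0.957 to 0.967. The labelled tissue was checked with 12 genes of neurons, astrocytes and oligodendrocytes, of which 9 were measured and all 9 lay above the limit. Differences are DBA minus C57 on the log2 scale with the standard error of limma, and adjusted p-values are from limma with Benjamini-Hochberg adjustment over all probe sets tested.

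No marker probe set above the limit passed an adjusted p of 0.05 (0 of 15), where 2.50% of all tested probe sets passed, 0.891% higher and 1.61% lower in DBA. At an unadjusted p under 0.05 there were 4 of 15, those of Ttr, Igf2, Hbb-b2 and S100a8, against 12.2% of all tested probe sets. The markers nonetheless differed up to several-fold between single animals, and which animals stood high or low was not the same for each tissue. In C57 animal 1 all 5 choroid plexus genes above the limit lay under the mean of the 9 animals. In C57 animal 5 all 5 pituitary genes lay under it, and in C57 animal 3 all 5 lay above it. In C57 animal 2 all 4 globin probe sets lay above it.

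Transthyretin (Ttr), the thyroid hormone carrier that the choroid plexus epithelium secretes into cerebrospinal fluid, had intensities of 3147.6, 2969.6, 4143.2 and 3638.1 in DBA animals 1 to 4 and of 907.4, 2970.3, 1964.1, 2440.2 and 1995.2 in C57 animals 1 to 5. Of the DBA animals 3 lay above every C57 animal, and DBA animal 2 lay just under C57 animal 2. C57 animal 1 was the lowest of all, at 0.393 times the geometric mean of the other C57 animals. The strains differed 1.80-fold, by 0.85 ± 0.30, with an adjusted p of 0.257, and by 0.58 without C57 animal 1 (adjusted p 0.180).

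Folate receptor alpha (Folr1), which carries folate across the choroid plexus, was measured at 255.5, 218.4, 265.6 and 234.6 in DBA and at 61.1, 283.4, 191.8, 247.8 and 207.0 in C57. C57 animal 1 stood far below the other 8 animals, at 0.266 times the geometric mean of the other C57 animals, and those other 4 spread around the DBA values. The difference of 0.46 ± 0.39 had an adjusted p of 0.731 and was 0.08 without C57 animal 1. The values of Folr1 in DBA spanned only 1.22-fold from lowest to highest.

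Klotho (Kl), a membrane protein of the choroid plexus and kidney that acts with fibroblast growth factor receptors, had intensities of 283.6, 255.0, 199.5 and 342.8 in DBA and of 140.7, 261.6, 238.7, 218.5 and 184.9 in C57. C57 animal 1 was again the lowest, at 0.628 times the geometric mean of its strain mates, and the strains overlapped (0.38 ± 0.21, adjusted p 0.543). Insulin-like growth factor 2 (Igf2), a growth factor that choroid plexus and meninges release, had 4559.9, 3738.7, 3886.2 and 4130.6 in DBA and 2298.9, 3343.6, 4054.6, 3417.4 and 2990.7 in C57. C57 animal 1 was lowest here too, at 0.670 times the geometric mean of its strain mates, and C57 animal 3 lay within the DBA range (0.36 ± 0.16, adjusted p 0.403).

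Foxj1, the transcription factor of motile cilia, is shared by choroid plexus and the ependyma that lines the ventricles. It had intensities of 212.9, 314.8, 335.2 and 301.9 in DBA and of 284.9, 299.6, 407.7, 328.3 and 354.7 in C57. DBA animal 1 was the lowest, and C57 animal 1 was the next lowest and the lowest of its strain (-0.21 ± 0.16, adjusted p 0.692). Over the 9 animals r of Foxj1 was -0.11 with Ttr, 0.03 with Folr1, -0.23 with Kl and -0.14 with Igf2. With each strain's mean removed it was 0.28, 0.22, 0.005 and 0.21 with the same genes in that order.

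**Figure D1:**
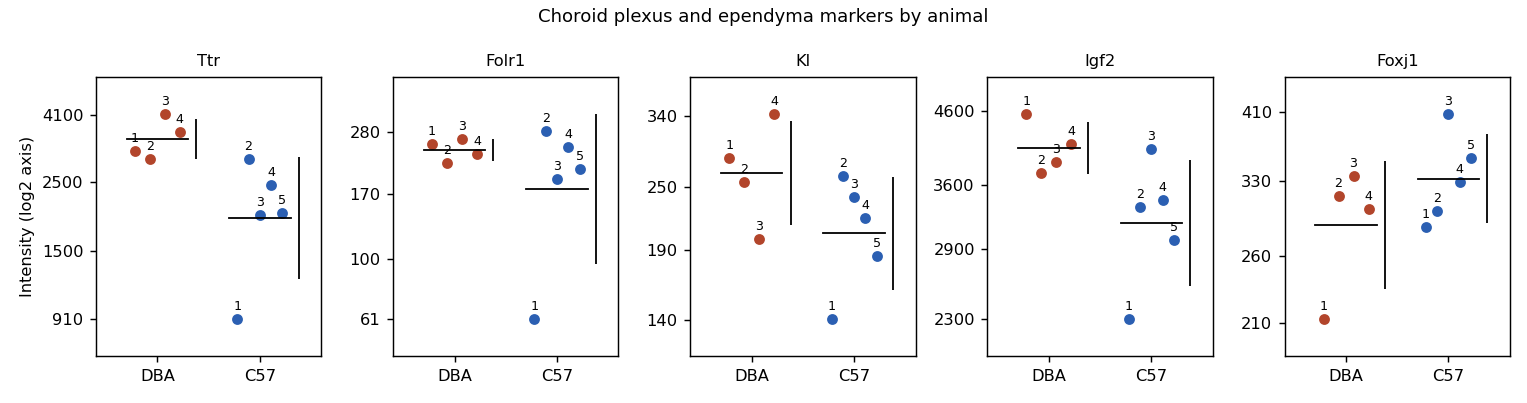
Choroid plexus genes above the brightness limit, 1 panel each: points are animals, labelled with their number, DBA on the left and C57 on the right, with intensity on a log2 axis; lines are geometric means and bars ± 1 SD of log2 values. C57 animal 1 is the lowest point of the 9 for Ttr, Folr1, Kl and Igf2, and the lowest C57 point for Foxj1, where DBA animal 1 is lower.

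The water channel Aqp1 and the tight junction protein Cldn1, both of the choroid plexus epithelium, stayed below the limit with all their probe sets. The brighter Aqp1 probe set ran from 13.6 to 76.2 in DBA and from 20.4 to 43.5 in C57, and the other from 7.4 to 50.4 in DBA and from 23.1 to 52.5 in C57. The brighter Cldn1 probe set ran from 32.6 to 46.2 in DBA and from 28.6 to 40.1 in C57. A further probe set each of Folr1, Igf2 and Cldn1 also lay below the limit, so those genes are described by their brightest probe set. That of Folr1 ran from 12.3 to 50.8 over the 9 animals, with 25.6 in C57 animal 1. That of Igf2 ran from 5.8 to 15.4, with 7.9 in C57 animal 1. Neither had its lowest value in that animal. The 5 genes above the limit had a median difference of 0.38, with 4 of 5 above 0, while the median of all 9316 tested probe sets was 0.01, with 51.7% above 0. Without C57 animal 1 the brightness limit was set again, and the median of the genes then above it was 0.08. Those were no longer the same 5 genes. Of the 5, Ttr then differed by 0.58, Igf2 by 0.25, Kl by 0.24 and Folr1 by 0.08, and Foxj1 stayed below 0.

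Of a further 38 genes of choroid plexus and ependyma, 21 were measured, 17 lay above the limit, and 0 passed in either direction by limma, with 4 at an unadjusted p under 0.05. Their median difference was 0.15. The smallest p among them belonged to Slc12a2, the sodium, potassium and chloride cotransporter of the choroid plexus and of other brain cells. It had 2012.6, 2177.0, 1951.6 and 2560.7 in DBA and 2795.8, 2749.1, 2841.2, 3106.1 and 2893.0 in C57. Every DBA animal lay below every C57 animal (-0.41 ± 0.11, adjusted p 0.0990). Absence of overlap in either direction was seen in 6.45% of all tested probe sets. C57 animal 1 was the lowest of the 9 for 5 of the 17 genes, as DBA animal 3 was for another 5. C57 animal 1 was the highest for 0, as was C57 animal 2. The 5 of C57 animal 1 were Slc4a5, Calml4, Rarres2, Igfbp2 and Slc31a1. Those of DBA animal 3 were Slc12a2, F5, Cdr2, Ace and Abca4. Both groups were named after their values were seen. For Slc31a1 the gap was small, 493.5 in C57 animal 1 against 501.8 in C57 animal 3. The bicarbonate transporter gene Slc4a5 had 84.6, 67.0, 50.4 and 84.5 in DBA and 27.3, 63.3, 62.6, 60.7 and 65.4 in C57, with C57 animal 1 well under the other 8 animals (0.40 ± 0.28, adjusted p 0.662).

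The pituitary genes gave a different order of animals. Growth hormone (Gh), made by somatotrophs, had intensities of 160.2, 140.5, 240.1 and 232.1 in DBA and of 290.2, 185.3, 388.2, 158.4 and 164.0 in C57. C57 animal 3 was the highest and DBA animal 2 the lowest, and the strains overlapped (-0.24 ± 0.29, adjusted p 0.832). The receptor for growth hormone releasing hormone (Ghrhr), by which somatotrophs are driven from the hypothalamus, had 103.6, 104.3, 141.0 and 145.3 in DBA and 114.6, 51.1, 162.3, 78.9 and 57.4 in C57. C57 animal 3 was again the highest, and 3 C57 animals lay under all of DBA (0.53 ± 0.32, adjusted p 0.592).

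Prolactin (Prl), the lactotroph hormone, had 69.0, 25.8, 19.4 and 133.0 in DBA and 32.0, 62.7, 75.1, 21.7 and 13.3 in C57. It spanned 10.0-fold over the 9 animals and reached the limit on 4 arrays, with DBA animal 4 highest and C57 animal 5 lowest (0.46 ± 0.66, adjusted p 0.861). The pattern of Prl thus rests on values near the limit.

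Among the glycoprotein hormone genes, the common alpha subunit Cga had 88.7, 99.6, 90.1 and 82.4 in DBA and 120.9, 58.2, 97.5, 62.0 and 40.0 in C57, with C57 animal 1 highest and C57 animal 5 lowest (0.36 ± 0.29, adjusted p 0.711). The luteinizing hormone beta subunit Lhb had 305.8, 305.7, 387.1 and 442.2 in DBA and 387.5, 327.1, 401.1, 394.0 and 282.2 in C57, with DBA animal 4 highest and C57 animal 5 lowest (0.00 ± 0.16, adjusted p 0.998). The beta subunits of thyrotropin (Tshb, from 6.6 to 29.4 over the 9 animals) and of follitropin (Fshb, from 14.3 to 37.9) lay below the limit. A second Cga probe set below the limit did not overlap between strains, with 26.0, 14.1, 65.6 and 18.6 in DBA and 4.4, 4.4, 13.5, 4.6 and 5.1 in C57. Without the limit, 5.35% of all probe sets were free of overlap in either direction. Over all probe sets without the limit, its difference was 2.18 ± 0.50 (adjusted p 0.0887), and 0.52 with intensities under 20 raised to 20. The brighter Cga probe set did overlap, so the probe sets of this gene disagree.

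The dim end of the arrays also differed between animals. The 25th percentile of intensity was 36.0, 39.4, 41.0 and 38.6 in DBA and 44.8, 34.7, 44.1, 36.9 and 32.1 in C57, highest in C57 animals 1 and 3 and lowest in C57 animal 5. Prl and Lhb, by contrast, were highest in DBA animal 4, and Gh was lowest in DBA animal 2. The part of the 25th percentile in the pituitary pattern was not tested. The 5 pituitary genes above the limit had a median difference of 0.36, and the 7 measured ones 0.05. Of a further 22 pituitary genes, 15 were measured, 10 lay above the limit and 0 passed by limma (1 at an unadjusted p under 0.05). Their median difference was 0.02, and the smallest p belonged to the somatostatin receptor gene Sstr5 (0.53 ± 0.19, adjusted p 0.251).

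The red cell genes are the alpha globin pair Hba-a1 and Hba-a2, the adult beta globins and Epb42, a protein of the red cell membrane skeleton. Mouse strains carry different beta globin haplotypes: DBA/2J has Hbb-b1 and Hbb-b2, and C57BL/6 has Hbb-bs and Hbb-bt. The reference promoters of the alpha and beta globin pairs that RefSeq lists on GRCm38.p6 are shown because the probe sets below do not separate all copies. Each window holds 250 bases before and 50 bases after the annotated start, 5′ to 3′, at chr11:32283422-32283721 (+) for Hba-a1, chr11:32296242-32296541 (+) for Hba-a2, chr7:103827879-103828178 (-) for Hbb-bs and chr7:103813874-103814173 (-) for Hbb-bt. Capitals mark the TATA-box letters TATAA, the CCAAT box, the Krüppel-like factor letters CACCC and the GATA-type letters AGATAA, on either strand.
Hba-a1: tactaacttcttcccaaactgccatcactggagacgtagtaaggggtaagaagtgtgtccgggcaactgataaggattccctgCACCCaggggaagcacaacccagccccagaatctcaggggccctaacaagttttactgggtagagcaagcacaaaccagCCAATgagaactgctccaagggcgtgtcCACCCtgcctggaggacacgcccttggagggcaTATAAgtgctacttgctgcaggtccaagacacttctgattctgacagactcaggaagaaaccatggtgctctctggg
Hba-a2: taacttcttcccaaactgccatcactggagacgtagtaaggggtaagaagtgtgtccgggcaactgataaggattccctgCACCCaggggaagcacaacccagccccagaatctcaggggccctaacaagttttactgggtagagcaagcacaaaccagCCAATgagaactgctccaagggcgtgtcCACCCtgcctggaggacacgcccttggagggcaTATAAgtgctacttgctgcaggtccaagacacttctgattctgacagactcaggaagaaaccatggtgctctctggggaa
Hbb-bs: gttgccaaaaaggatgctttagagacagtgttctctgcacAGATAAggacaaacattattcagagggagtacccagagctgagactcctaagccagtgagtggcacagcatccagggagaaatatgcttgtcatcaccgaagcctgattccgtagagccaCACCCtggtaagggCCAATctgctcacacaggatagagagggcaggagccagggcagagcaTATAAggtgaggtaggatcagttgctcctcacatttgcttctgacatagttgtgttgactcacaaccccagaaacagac
Hbb-bt: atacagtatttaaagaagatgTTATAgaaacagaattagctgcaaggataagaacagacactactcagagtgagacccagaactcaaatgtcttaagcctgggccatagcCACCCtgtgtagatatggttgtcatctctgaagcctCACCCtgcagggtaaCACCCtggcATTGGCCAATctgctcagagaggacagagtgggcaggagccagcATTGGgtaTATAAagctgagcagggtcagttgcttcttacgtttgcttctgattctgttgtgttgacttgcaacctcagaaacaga

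Hba-a1 and Hba-a2 were identical at 297 of 297 positions once the windows were set 3 bases apart, and Hbb-bs and Hbb-bt at 168 of 299 positions (56.2%) at a shift of 1 base. TATAA started at position -27 in Hba-a1, -30 in Hba-a2, -29 in Hbb-bs and -28 in Hbb-bt, counted from the annotated start as 0. All 4 windows held the CCAAT box and the letters CACCC, and Hbb-bs also held AGATAA. Among all 32851 promoter windows of that length, TATAA was found in 24.9%, the CCAAT box in 37.4%, CACCC in 57.5% and AGATAA in 11.2%. A match describes the letters and not a bound site.

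The probe set shared by the 4 beta globin genes had intensities of 10543.0, 6579.0, 9427.8 and 5893.8 in DBA and of 6634.3, 11017.8, 7608.9, 7359.8 and 7666.2 in C57. DBA animals 1 and 3 and C57 animal 2 were high, the strains overlapped, and the difference was -0.01 ± 0.21 (adjusted p 0.993). The probe set of Hba-a1 alone had 7345.4, 6656.0, 7466.7 and 4187.3 in DBA and 5172.9, 9277.6, 5522.8, 7558.5 and 8124.8 in C57. C57 animal 2 was the highest and DBA animal 4 the lowest of the 9, as for beta globin (-0.15 ± 0.23, adjusted p 0.864).

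A probe set that the annotation gives to both Hba-a1 and Hba-a2 had 876.2, 1071.4, 947.1 and 1108.9 in DBA and 1470.4, 1411.6, 1607.0, 969.5 and 893.4 in C57. It put C57 animals 1, 2 and 3 above the other 6, an order that the Hba-a1 probe set did not show (-0.31 ± 0.19, adjusted p 0.596). Its values correlated with those of the Hba-a1 probe set at r = -0.35 over the 9 animals, so the alpha globin probe sets disagree. Copies of these genes share most of their sequence, and signal of one copy on a probe set of another cannot be told apart here.

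The probe set listed for Hbb-b2 had 2459.6, 1475.7, 1778.2 and 1537.1 in DBA and 1036.2, 1679.0, 1279.2, 885.9 and 1133.0 in C57. C57 animal 2 lay within the DBA range and the other 4 C57 animals below it, a 1.51-fold difference of 0.60 ± 0.21 (adjusted p 0.253). The haplotype goes with the strain, and its share in this difference cannot be told apart. Epb42 lay below the limit, its probe sets running from 9.8 to 31.3 and from 14.9 to 25.3 in DBA and from 8.1 to 16.6 and from 4.0 to 16.8 in C57. The probe set that reached 4.0 differed by 1.51 ± 0.42, with an adjusted p of 0.192 without the limit. A second probe set of the 4 beta globins was below the limit too.

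The 4 red cell probe sets above the limit had a median difference of -0.08. Of a further 24 red cell genes, 16 were measured, 13 lay above the limit and 0 passed by limma (1 at an unadjusted p under 0.05), with a median of 0.06. The smallest p belonged to ankyrin 1 (Ank1), which ties the red cell membrane to its skeleton and is also made in brain. It had 2880.5, 3236.6, 3626.4 and 2805.0 in DBA and 1774.3, 2378.9, 2249.7, 2532.6 and 2428.4 in C57, with no overlap (0.47 ± 0.13, adjusted p 0.139). The other 2 Ank1 probe sets, also above the limit, overlapped between strains, with 0.18 ± 0.14 (adjusted p 0.700) and 0.24 ± 0.17 (adjusted p 0.662).

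**Figure D2:**
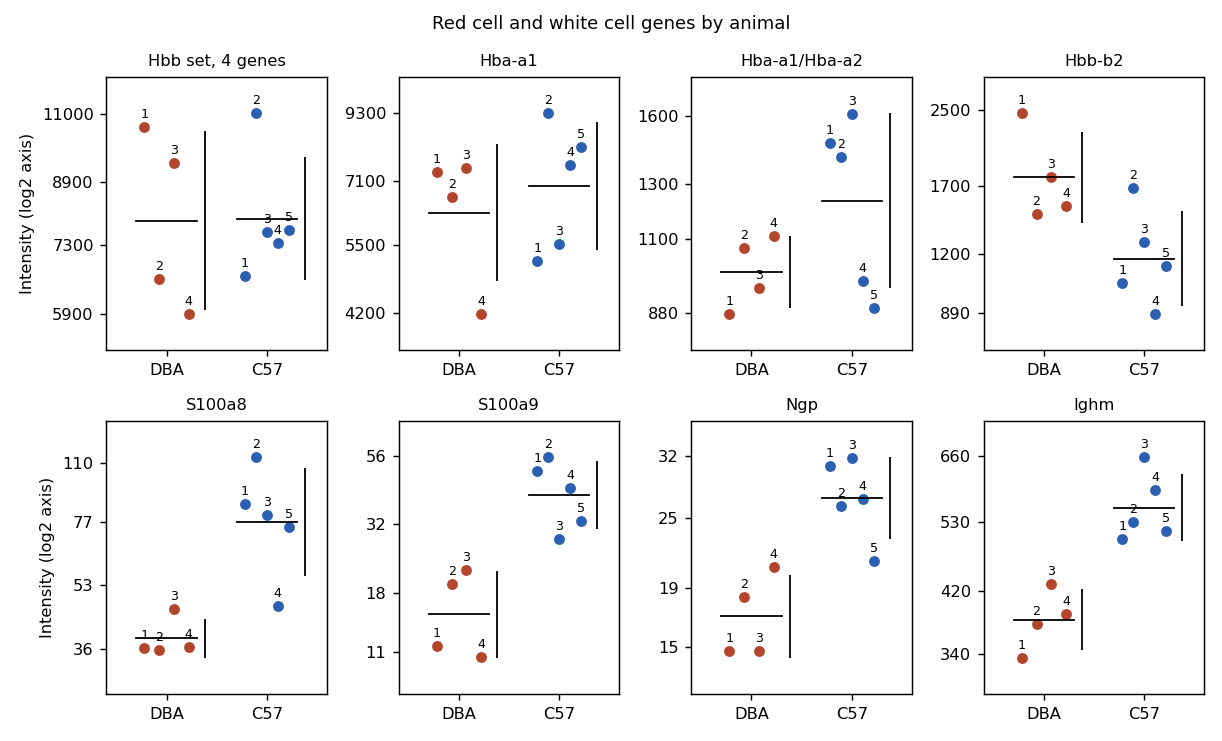
Blood genes by animal, DBA on the left and C57 on the right in each panel, with intensity on a log2 axis; points are animals labelled with their number, lines geometric means and bars ± 1 SD of log2 values. The globin panels overlap between strains, and S100a8, S100a9, Ngp and Ighm do not. Ngp was chosen after its values were seen, and the other 11 of 12 measured neutrophil genes of the white cell list overlapped. Ighm is shown by its brightest probe set, and its other 15 probe sets overlapped.

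S100a8 and S100a9 encode the paired calcium-binding proteins that make up calprotectin, abundant in neutrophils. They were the only member genes whose brightest probe sets did not overlap between strains. S100a8 had 36.3, 35.8, 45.7 and 36.5 in DBA and 85.8, 114.0, 80.5, 46.5 and 74.8 in C57. Every DBA animal lay below every C57 animal, with DBA animal 3 close under C57 animal 4. Of all tested probe sets, 3.61% were without overlap in that direction. The difference was -1.01 ± 0.23, a 2.01-fold lower level in DBA, and its adjusted p of 0.0506 missed the threshold. Without C57 animal 4 it was -1.19 (adjusted p 0.00493), and with any other single animal left out the threshold was missed. The DBA values lay close above the brightness limit of 35.4.

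S100a9 had 11.6, 19.4, 21.8 and 10.6 in DBA and 49.4, 55.5, 28.1, 43.0 and 32.7 in C57. It exceeded the limit on 3 C57 arrays and on no DBA array, and its mean lay below it. Over all 12422 probe sets other than array controls, without the limit, it was 2.68-fold lower in DBA (-1.42 ± 0.29, adjusted p 0.0497), where 1.63% of probe sets passed and 2.95% were lower in DBA without overlap. With intensities under 20 raised to 20, the difference was -0.99 and the adjusted p 0.0585. Leaving out single animals gave adjusted p-values on both sides of the threshold. The mean log2 ratio of 3′ to 5′ signal over 3 control genes, which falls with more even coverage of transcripts, was 0.68, 0.61, 0.59 and 0.71 in DBA and 0.66, 0.80, 0.80, 0.84 and 0.79 in C57. It was lower in DBA except beside C57 animal 1, and its part in the neutrophil difference was not tested.

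The promoters of S100a8 (chr3:90668821-90669120, +) and S100a9 (chr3:90695672-90695971, -) are shown because both genes were lower in every DBA animal than in any C57 animal. Both are RefSeq windows of GRCm38.p6 of the same length as above. Capitals mark the letters TATAA, a C/EBP-type core written TTNNGNAA, and a PU.1-type site written GAGGAA, on either strand.
S100a8: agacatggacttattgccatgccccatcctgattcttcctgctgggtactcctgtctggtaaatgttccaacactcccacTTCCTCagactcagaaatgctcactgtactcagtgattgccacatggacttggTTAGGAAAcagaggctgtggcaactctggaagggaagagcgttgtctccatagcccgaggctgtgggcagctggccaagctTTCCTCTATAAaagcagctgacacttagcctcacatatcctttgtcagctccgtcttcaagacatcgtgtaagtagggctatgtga
S100a9: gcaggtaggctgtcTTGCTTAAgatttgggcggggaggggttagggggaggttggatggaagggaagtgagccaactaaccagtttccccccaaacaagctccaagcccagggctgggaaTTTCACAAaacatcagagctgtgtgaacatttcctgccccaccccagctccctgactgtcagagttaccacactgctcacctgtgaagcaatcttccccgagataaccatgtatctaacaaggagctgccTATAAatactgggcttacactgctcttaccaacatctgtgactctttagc

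TATAA started at position -30 in S100a8 and at the annotated start itself in S100a9. TTNNGNAA was found in both windows, GAGGAA in that of S100a8 alone, and these motifs stood in 40.7% and 28.3% of all promoter windows. The windows of the pair were identical at 85 of 295 positions (28.8%).

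Of a further 33 genes of white cells and platelets, 28 were measured and 15 lay above the limit. Of all tested probe sets 0.891% passed higher in DBA and 1.61% lower, and of these 15 genes 0 were higher and 1 lower. It was Ighm, the constant region of the IgM heavy chain made by B cells, with 335.5, 376.3, 430.3 and 388.2 in DBA and 500.6, 529.3, 657.9, 589.7 and 514.2 in C57. All DBA animals lay below all C57 animals, as in 3.61% of all tested probe sets. This probe set, the brightest of 16 listed for Ighm, fell in DBA by limma (-0.54 ± 0.12, 1.46-fold, adjusted p 0.0465). The other Ighm probe set above the limit overlapped between strains (-0.15 ± 0.13, adjusted p 0.744). All 15 other sets overlapped, with 9 differences above 0 and 6 below, so the probe sets of this gene disagree. The call was lost with 8 of the 9 animals left out in turn (adjusted p from 0.04997 to 0.144 over the 9), after quantile normalization (0.0538), with arrays centred on their medians (0.0663) and with no limit on brightness (0.0887), while the difference stayed between -0.60 and -0.48. The neutrophil granule gene Ngp, chosen after its values were seen, lay below the limit with 14.8, 18.3, 14.8 and 20.6 in DBA and 30.7, 26.3, 31.8, 27.0 and 21.1 in C57. These values did not overlap (-0.68 ± 0.16, adjusted p 0.109 without the limit). Without the limit, 5.35% of all probe sets were free of overlap in either direction, and 2.95% were so with DBA lower. Ngp was alone in lacking overlap among 12 measured neutrophil genes of the list, grouped after their values were seen. The other 11 overlapped, and 8 of the 12 had a difference above 0, among them Prtn3 (0.46 ± 0.20, adjusted p 0.397), Csf3r (0.28 ± 0.19, adjusted p 0.628) and Camp (0.16 ± 0.24, adjusted p 0.868). The median of the 15 genes above the limit was 0.07.

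The members of each tissue were then set beside each other across the 9 animals, to show whether they moved together. The measure was Pearson's r of log2 intensity, over the brightest probe set of each gene above the limit. All pairs share the same 9 arrays. Among the 10 choroid plexus pairs 7 had r above 0, with a median of 0.73. Ttr and Folr1 had r = 0.91, Kl and Igf2 0.83, Ttr and Igf2 0.81, Folr1 and Igf2 0.77 and Ttr and Kl 0.75. With each strain's mean removed all 10 had r above 0 (median 0.64), from 0.005 for Kl with Foxj1 to 0.97 for Ttr with Folr1. All 10 pituitary pairs had r above 0, with a median of 0.46, led by Cga with Ghrhr at 0.79. After quantile normalization, which gives every array the same distribution, the pituitary median was 0.25 and that of the choroid plexus 0.70. Of the 6 red cell pairs 3 had r above 0 (median 0.00), and Hba-a1 with the shared beta globin probe set had 0.76. Of the 79 pairs between tissues 37 had r above 0, with a median of -0.03 and a range from -0.76 to 0.71.

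**Figure D3:**
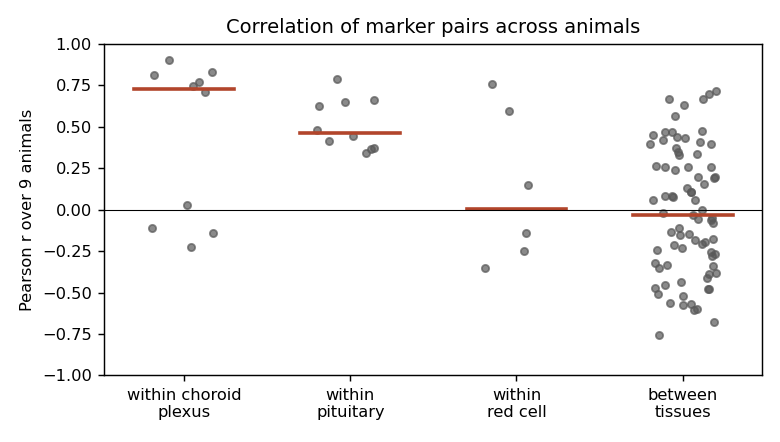
Pearson's r over the 9 animals for each pair of marker probe sets above the limit; points are pairs and thick lines medians, within the choroid plexus (10 pairs), the pituitary (10), the red cell (6) and between tissues (79). The medians are 0.73, 0.46, 0.00 and -0.03.

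The order of the animals differed between the tissues. The median log2 deviation of the 5 choroid plexus genes from their means over the 9 animals was 0.33, 0.10, 0.13 and 0.22 in DBA and -0.70, 0.19, 0.06, -0.03 and -0.24 in C57. For the 5 pituitary genes it was 0.06, -0.22, 0.20 and 0.32 in DBA and 0.20, -0.16, 0.71, -0.34 and -0.79 in C57. C57 animal 1, the lowest for the choroid plexus, lay above the mean in 4 of 5 pituitary genes. For the 4 globin probe sets it was 0.28, -0.03, 0.21 and -0.22 in DBA and -0.31, 0.40, -0.10, -0.16 and -0.18 in C57.

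**Figure D4:**
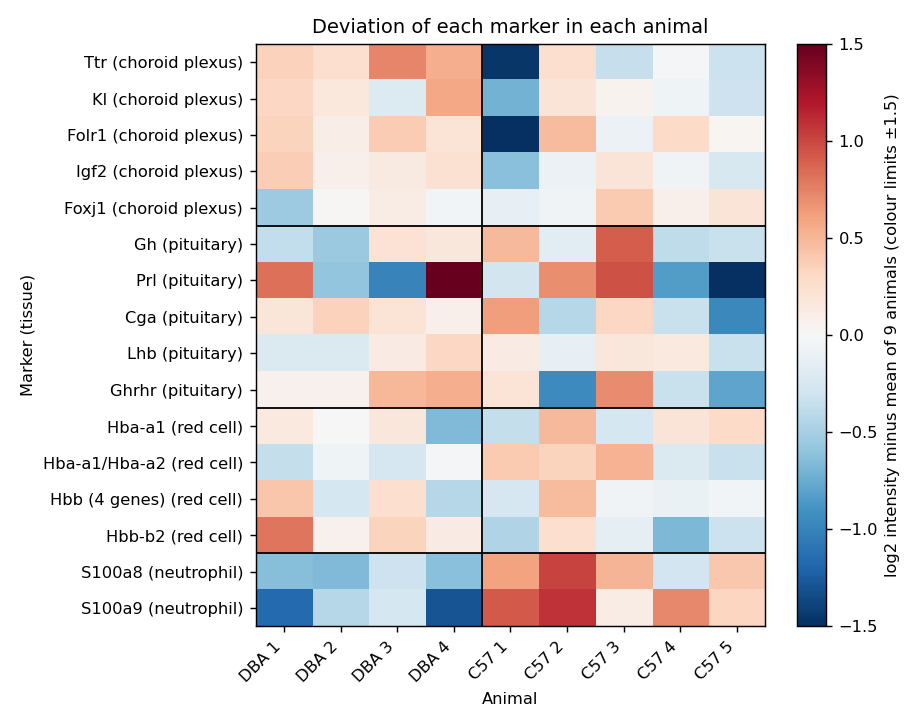
Deviation of each animal from the mean of the 9 animals, in log2 units, DBA animals left of C57 animals. The genes are the markers of each tissue above the limit, and S100a9, which lay below it. C57 animal 1 lies lowest for the choroid plexus (median -0.70) and C57 animal 5 for the pituitary (median -0.79).

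A test was run for each gene against the brightest member of its tissue, Igf2, Lhb or the shared beta globin probe set, as an exact permutation test over all 362880 orders of the 9 animals, 2-sided, with Benjamini-Hochberg adjustment over the 11 pairs. None of the 11 pairs (0) passed. Igf2 with Kl had r = 0.830 (exact p 0.00640, adjusted 0.0694) and Spearman's rho 0.733 (exact permutation p 0.0311, adjusted 0.171). Igf2 with Ttr had r = 0.814 (exact p 0.0139, adjusted 0.0694) and rho 0.600 (exact permutation p 0.0968, adjusted 0.238). Without C57 animals 1 and 5, the farthest from the median of Igf2, r was 0.414 for Kl, 0.181 for Ttr and -0.306 for Folr1, so the relation to Igf2 did not hold without them. Leaving out C57 animal 1 alone gave 0.630 for Kl, 0.463 for Ttr and 0.059 for Folr1, and leaving out C57 animal 5 alone 0.812, 0.810 and 0.814. Each r was thus lower without C57 animal 1 than without C57 animal 5, that of Folr1 by the most and that of Kl by the least. Ttr in place of Igf2, a choice made after seeing the data, gave r = 0.905 with Folr1 (exact p 0.00348, adjusted 0.0383) and rho 0.800 (exact permutation p 0.0138, adjusted 0.152). Without C57 animal 1 that r was 0.692 (adjusted exact p 0.260), and without C57 animals 1 and 3 it was 0.533.

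Beta globin with Hba-a1 had r = 0.756 (exact p 0.0189, adjusted 0.0694) and rho 0.733 (exact permutation p 0.0311, adjusted 0.171), and r = 0.697 without DBA animal 1 and C57 animal 2. With deviations from the own strain's mean, permuted within strain, the shared beta globin probe set correlated with Hba-a1 (r = 0.772) and with Hbb-b2 (r = 0.849), each at an adjusted exact p of 0.0344. Over all 9 animals its r with Hbb-b2 was 0.595 (exact p 0.0926, adjusted 0.146; rho 0.50, adjusted 0.279) and 0.187 without DBA animal 1 and C57 animal 2. Hbb-b2 is itself among the genes of the shared probe set, so that pair does not compare separate markers. For Lhb, the highest values were r = 0.661 with Gh and 0.649 with Ghrhr (exact permutation, both adjusted p 0.117), with rho 0.550 (adjusted 0.243) and 0.650 (adjusted 0.238). Leaving out DBA animal 2 and C57 animal 5 gave 0.524 and 0.589.

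The genes most like each lead marker are given as a description, by r over the 9 animals among 6851 other named genes above the limit. For Igf2 they were Anxa5 (r = 0.946), Adcy7, Rhpn1, Nucb1 and Dclre1a (0.921). For Ttr they were Elovl5 (0.979), Snx27, Crip1, Dlx1as and Hltf (0.917). Elovl5, which lengthens polyunsaturated fatty acids, had 2666.2, 2681.4, 2769.6 and 2857.5 in DBA and 1976.3, 2542.3, 2411.2, 2523.3 and 2431.4 in C57, with C57 animal 1 lowest as for Ttr. For Lhb they were Fgf4 (0.963), Pfdn6, C5ar1, Scamp1 and Limk1 (0.930), and for beta globin Selenok (0.939), Eif2b2, Ddx6, Igbp1 and Cln8 (0.885). For S100a8 they were Dcaf8 (0.977), Ggcx, Trmt1, Gatad2a and Cdc23 (0.940). S100a8 did not overlap between strains, and with each strain's mean removed these r values ran from 0.923 for Dcaf8 to 0.814 for Cdc23.

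Other tissues that can come with a brain were read in the same way. In the meninges, 18 of 21 listed genes lay above the limit and 0 passed by limma (2 at an unadjusted p under 0.05), with a median of 0.06. The smallest p was that of decorin (Dcn), a collagen-binding proteoglycan (0.42 ± 0.10, adjusted p 0.0751). Of 9 pineal genes, 3 lay above the limit, all with differences above 0 and a median of 0.62. None passed by limma (0 also at an unadjusted p under 0.05), the smallest p being that of Rom1 (0.62 ± 0.51, adjusted p 0.725). Skeletal muscle had 6 of 10 genes above the limit, 0 passing (0 unadjusted), a median of -0.02 and the smallest p at Atp2a1 (0.36 ± 0.34, adjusted p 0.774). Peripheral nerve had 2 of 6, 0 passing (0 unadjusted), with Egr2 at 0.71 ± 0.33 (adjusted p 0.439). Of the 9 whole brain genes 0 passed (1 unadjusted), and the myelin gene Mog had the smallest p (-0.62 ± 0.18, adjusted p 0.137).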

How the data were processed

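Total RNA of the whole brain was labelled from 5 ug, per the labels' protocol. The authors deposited intensities on a linear scale for 12488 probe sets on 9 arrays. How the arrays were scanned, how probes were summarised and how the values were normalized is not given in the sources used here. No detection call was used. A further 18 arrays of another platform, titled with the same strains and numbers and a letter A or B, were not used here. The 66 array controls were left out. Probe sets were named from the platform annotation. 10855 had 1 symbol and 396 several. A synonym match of Igf2 to 2 probe sets of M6pr was not used.

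Intensities under 1.7, the 1st percentile, were raised to it (0.978% of values) and log2 was taken. Probe sets in the dimmest 25% were left out. Strains (4 DBA against 5 C57) were compared 2-sided by limma 3.58.1 (lmFit, then eBayes) under R 4.3.3. The script was tested on simulated data. The p-values measure only the spread between these samples, and precision is limited by the number of arrays. Correlations were computed with numpy 2.4.6 and figures drawn with matplotlib 3.10.9 in Python 3.11.15.

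Members and gene lists were chosen with earlier results of these data known. All members are named. Of each further list, up to 4 genes past the threshold are named, or that with the smallest p, and for each tissue the 5 named genes most correlated with its brightest member. Promoter windows are RefSeq's, found for 16 of the 23 measured genes. Alternatives were other scalings, floors, filters, an intensity trend, a replicate block and leaving out animals. The labels give both strains numbers from 1, but do not say that a number pairs animals. Deviations of same-numbered animals correlated at -0.10, -0.02, -0.01 and -0.17, so the numbers were not taken as pairs.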

Additional observations from a re-analysis of the deposited data

Results flagged for a closer look

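In 56 groups of animals checked (28 probe sets in each strain), 5 held an animal whose gap to its nearest neighbour was large against the range of its group. Chance gives about 1 in 20 groups. They were Folr1 in C57 animal 1 (intensity 61.1, low), the beta globin probe set in C57 animal 2 (11017.8, high) and S100a8 in DBA animal 3 (45.7, high). The others were probe sets below the brightness limit, a second one of Igf2 in C57 animal 3 (15.4, high) and a second one of Cga in C57 animal 3 (13.5, high).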

How the results depend on the processing

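Over all probe sets, 233 passed; 150 passed at an adjusted p under 0.01, 73 with the replicate block, and from 185 to 231 with single animals left out. Of the 15 marker probe sets above the limit 0 passed, and 1 passed, S100a8, after quantile normalization (adjusted p 0.0439), with arrays centred on their medians (0.0399) and with a floor at 20 (0.0476). With single animals left out from 0 to 1 passed, the 1 being S100a8 without C57 animal 4. With no limit on brightness 1 of 28 passed, S100a9. The replicate block gave S100a8 an adjusted p of 0.194 and Ighm 0.169. Without the limit S100a9 passed after quantile normalization (0.0453) and without DBA animal 3 (0.0459) or C57 animal 3 (0.0461), and otherwise had from 0.0503 to 0.311. The second Cga probe set passed with the replicate block (0.0443) and without C57 animal 3 (0.0371). With single animals left out and the limit set again each time, the choroid plexus median ran from 0.080 (without C57 animal 1) to 0.47. The genes above the limit could change between these fits. No neutrophil median could be had with the dimmest 50% left out. The pituitary median was -0.12 with the dimmest 50% left out, when only Gh and Lhb remained. It ran from 0.12 to 0.48 with single animals left out. Small differences changed sign: Lhb was -0.0075 with arrays centred on their medians, -0.081 with the replicate block, and from -0.10 to 0.075 with single animals left out. Hba-a1 ran from -0.26 to 0.039 (without DBA animal 4). The beta globin probe set ran from -0.15 to 0.13, above 0 without DBA animal 2, DBA animal 4 or C57 animal 2. Of the pairs with a lead marker 0 passed, against 2 with deviations from the own strain's mean, 1 with Ttr as lead, and from 0 to 1 with single animals left out. Of those 2, 1 set Hbb-b2 against the probe set that also covers it. The cause of these changes was not tested. The array floor and the values near the brightness limit bound what can be said of Prl, S100a8 in DBA, S100a9, Epb42, Aqp1, Cldn1, Tshb and Fshb.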
